A study of Avena sativa with 108 samples.

Results

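The youngest whole grain of CDC Morrison was compared with that of AC Morgan, a pair of Canadian cultivars of oat (Avena sativa), at 5 days after the panicle emerged (days postemergence, DPE). The comparison took every library that the sample labels give for this time, 3 of CDC Morrison and 3 of AC Morgan, which are 6 of the 108 libraries of the series. The rest were 42 libraries of the same cultivars' developing grain from 10 to 40 DPE and 60 of germinating grain. The labels name no treatment, mutation or transgene, and both cultivars were grown from fungicide-treated seed in a climate-controlled glasshouse. Each replicate pooled 10 grains, with the glumes removed, from a single panicle, so the spread between replicates is that between panicles and includes any difference in the exact stage of the florets. The mRNA was sequenced as single-end reads from stranded libraries, and edgeR's quasi-likelihood test was applied to the estimated counts per gene. A gene was called higher or lower where its Benjamini-Hochberg adjusted p was under 0.05, and levels are CPM (counts scaled to a common library total after TMM scaling), which do not allow for gene length and were compared only between libraries. Differences are log2 fold changes of CDC Morrison over AC Morgan, with their standard errors (SE).

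At this stage the cereal grain is largely maternal. The ovary wall and the nucellus, the tissue that encloses the embryo sac, are still dividing and expanding, carbon arrives as sucrose, and the endosperm has not yet filled with starch and storage protein. Cultivated oat is a hexaploid whose A, C and D subgenomes each carry related copies (homeologs) of most genes. A function can therefore be served by several genes, and a difference in one copy need not be a difference in the function. Gene identifiers are those of the OT3098 v2 annotation, in which the prefix AVESA.00001b.r3. is shared and left out here, and the first 2 characters after it give the chromosome and subgenome. OT3098 is neither of the cultivars compared. Functions are the deposited descriptions, which are matches to proteins of other species.

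The 6 libraries held 12040047 to 30711701 estimated counts. Log2 CPM values correlated across genes at r = 0.909 to 0.931 between libraries of the same cultivar and at 0.828 to 0.879 between cultivars. Among genes with enough counts to compare, replicates of each cultivar differed by far more than sampling noise. Replicate 1 of AC Morgan was the shallowest library and stood apart in its makeup, since its 10 most abundant genes took 5.93% of the counts, against 1.04% to 1.92% in the other 5 libraries, and genes described as organelle-encoded took 5.12%, against 0.154% to 0.407%. Markers of tissue were checked as lists. The 70 tested MADS-box genes, which set floral organ identity, summed to 1654, 1528 and 1757 CPM in CDC Morrison against 1550, 1626 and 1830 CPM in AC Morgan, ranges that overlapped. The 92 storage protein genes, markers of a filling endosperm, summed to 157, 139 and 146 CPM in CDC Morrison against 220, 409 and 116 CPM in AC Morgan. Because these are bulk samples, fewer cells of a type and less RNA per cell cannot be told apart.

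Of 62030 genes tested, 2943 (4.74%) were higher and 3045 (4.91%) lower in CDC Morrison. The median size of the called differences was 1.96 log2 units among the genes that were higher and -2.53 among those that were lower, and over all genes tested the median was 0.00. In 2639 of the genes called higher and 2832 of those called lower the 3 CDC Morrison libraries lay wholly on one side of the 3 AC Morgan libraries, a separation that 9.90% and 10.6% of all genes tested showed in those directions. Many called differences were close to presence against absence. In 627 of the genes called higher (21.3%) the 3 AC Morgan libraries held at most 3 counts in all, and in 756 of those called lower (24.8%) the 3 CDC Morrison libraries did. Whether such a cultivar lacks the gene, carries a copy too diverged for its reads to be assigned, or does not express it cannot be told apart. The fit took its estimate of spread from all 47 development libraries used. With the 6 libraries of 5 DPE alone, 1497 genes were higher and 2044 lower (5.99% of 59123 tested), of which 1440 and 1903 were also called with all 47.

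Most of the difference at 5 DPE was also present later. Of the genes higher at 5 DPE, 2414 (82%) were also higher in the mean of the 7 time points from 10 to 40 DPE, where 17.0% of all genes were, and 2648 (87.0%) of those lower were also lower there, where 18.0% of all genes were (35.0% in either direction). In the libraries of germinating grain, 2326 of 2921 genes that could be tested (79.6%) were again higher and 2481 of 3009 (82.5%) again lower, against 23.5% and 18.6% of all genes. The direction turned in few genes, 39 and 40 of which were called in the opposite direction from 10 to 40 DPE. The comparisons below therefore start from differences that were mostly lasting, and the genes whose difference at 5 DPE departed from the later mean are described last.

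Fewer functions than genes differed. When the counts of all genes with the same description were summed and tested in the same way, a step added after the gene results were seen, 229 of 11493 functions were higher (1.99%) and 214 lower (1.86%). That was 3.85% in all, against 9.65% of all genes tested. The 2 shares are of unlike sets, since the sums hold only genes with a description and were fitted separately. Of the 46993 tested genes with a description, 4220 were called. Of the 4096 called genes whose function has more than 1 gene, the function's sum was called in the same direction for 491 (12%), in the opposite direction for 38 and not at all for 3567 (87.1%). In 531 of the 2636 descriptions with any called gene, some genes were called higher and others lower. A sum that missed the threshold does not show that the function was equal. The share of functions called was 6.11% among functions of a single gene, 3.37% for those of 2 to 3 genes, 3.36% for those of 4 to 9 genes and 4.94% for those of at least 10.

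Mitochondrial porin is an example. Porin 2 is a channel of the outer mitochondrial membrane, and its gene 1Ag0002210 had the smallest p among the genes higher that have a description, at 51.7, 56.9 and 66.8 CPM in CDC Morrison against 0, 0.024 and 0 CPM in AC Morgan (adjusted p = 1.7e-17). A second copy, 1Ag0001859, ran the other way, at 47, 41.4 and 40.6 CPM in CDC Morrison against 72.3, 74.7 and 79.8 CPM in AC Morgan, or -0.82 in log2 units. The 4 copies together came to 148, 152 and 159 CPM in CDC Morrison against 110, 110 and 113 CPM in AC Morgan, which do not overlap, but the difference of 0.46 ± 0.14 (SE) missed the threshold (adjusted p = 0.0577).

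The pattern recurred in genes of translation and protein breakdown. Initiation factor 5B joins the ribosomal subunits at the start codon. Its copy 1Ag0003725 was at 0.464, 0.799 and 0.368 CPM in CDC Morrison against 61.3, 48.1 and 50.1 CPM in AC Morgan, while copies 1Ag0002223 and 1Dg0002238 were higher by 0.84 and 0.77 log2 units. The sum was 206, 199 and 227 CPM in CDC Morrison against 188, 159 and 176 CPM in AC Morgan (log2 fold change 0.27 ± 0.14, adjusted p = 0.386). Copies of proteasome subunit alpha type-6, part of the ring through which substrates enter the proteasome, were called 2 higher and 2 lower. Their sum was 154, 157 and 165 CPM in CDC Morrison against 145, 145 and 208 CPM in AC Morgan, ranges that overlap (-0.07 ± 0.15). Reads of near-identical copies may have been divided between them by the quantification, so the value of any 1 copy is less certain than the sum.

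**Figure D1:**
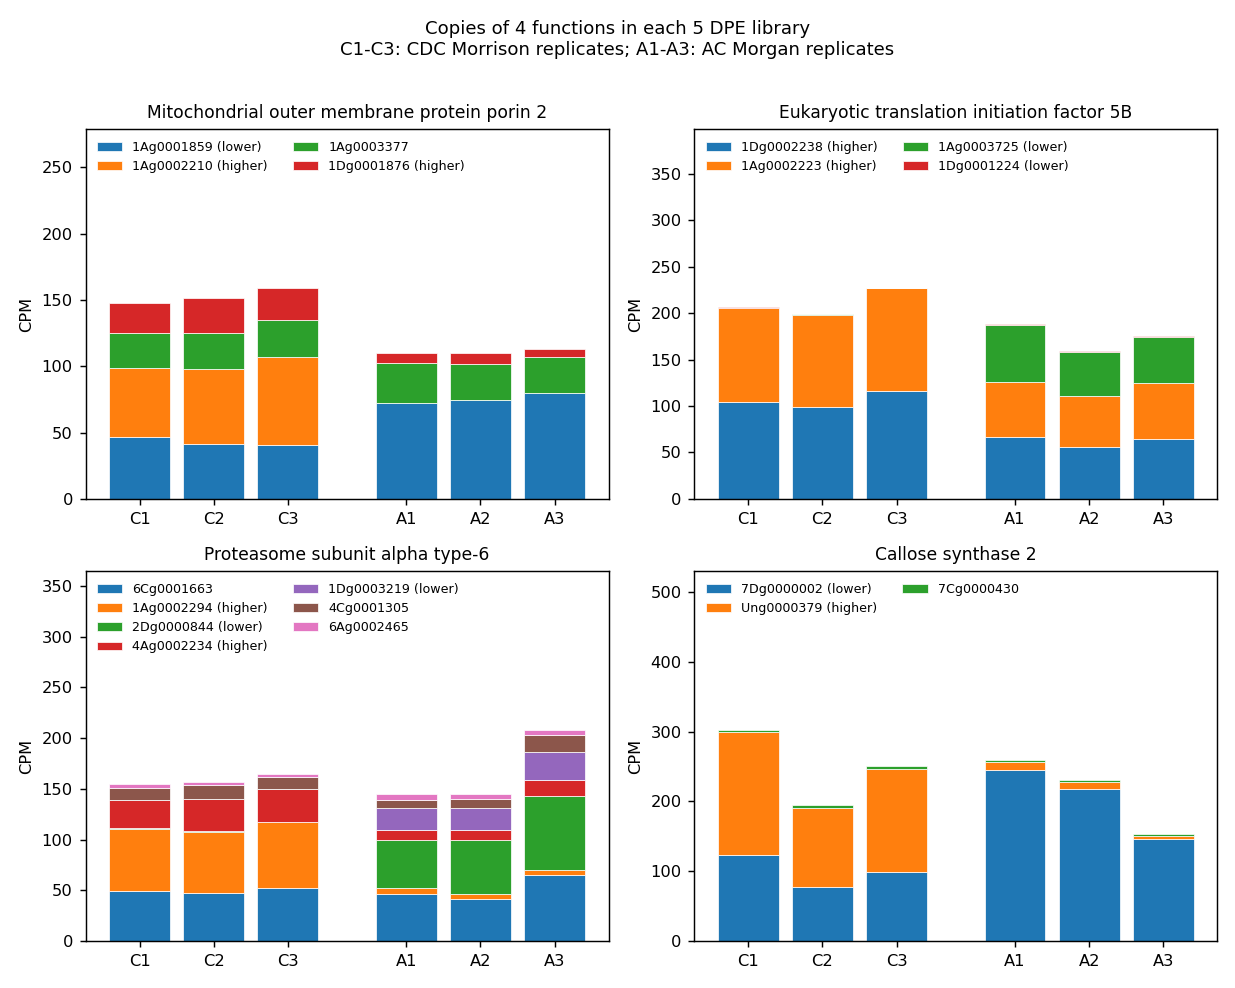
CPM of every gene of 4 functions, stacked in each 5 DPE library (C1 to C3, CDC Morrison replicates; A1 to A3, AC Morgan replicates), with each colour 1 gene and the legend giving the genes called higher or lower in CDC Morrison. Single segments appear in one cultivar only, such as porin gene 1Ag0002210 at 51.7 to 66.8 CPM in CDC Morrison, while the bar heights differ far less between cultivars.

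Callose synthases, which deposit the (1,3)-glucan of young cell plates and walls, gave the clearest exchange between copies among wall genes. Callose synthase 2 gene Ung0000379, on unplaced sequence, was at 176, 113 and 148 CPM in CDC Morrison against 11.5, 9.48 and 5.04 CPM in AC Morgan (4.08 ± 0.39 in log2 units, adjusted p = 2.97e-10). Its copy 7Dg0000002 was at 123, 77.2 and 98.2 CPM in CDC Morrison against 245, 218 and 146 CPM in AC Morgan (-1.03 ± 0.33, adjusted p = 0.0364), a call lost without replicate 1 (adjusted p = 0.157) or 2 (0.101) of AC Morgan or replicate 2 (0.175) or 3 (0.0945) of CDC Morrison. The 3 copies together overlapped between cultivars, at 303, 195 and 251 CPM in CDC Morrison against 259, 231 and 153 CPM in AC Morgan. Callose synthase 3 behaved alike, with 1Cg0000246 higher at 197, 131 and 153 CPM in CDC Morrison against 60.7, 83.8 and 61.3 CPM in AC Morgan, and 3Cg0000189 lower at 36.2, 16 and 32.1 CPM in CDC Morrison against 166, 133 and 94.6 CPM in AC Morgan.

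The 10 described genes that rose and the 10 that fell with the smallest p, among those with non-overlapping libraries, were mostly single copies of housekeeping and regulatory functions. CDC48 is an ATPase that unfolds ubiquitin-tagged proteins, and its copy 1Cg0001084 was at 49.2, 38.5 and 39.0 CPM in CDC Morrison with 0 counts in all 3 AC Morgan libraries, at least 1499-fold higher against a floor of 3 counts over the AC Morgan libraries. Here the sum of both copies was also higher, at 232, 210 and 211 CPM in CDC Morrison against 159, 142 and 145 CPM in AC Morgan (0.55 ± 0.12, adjusted p = 0.00274). Phosphoenolpyruvate carboxylase, which feeds carbon into organic acids, had 1 called gene, 6Cg0002267, at 72.4, 63.9 and 88.8 CPM in CDC Morrison against 4.20, 7.92 and 5.85 CPM in AC Morgan (3.64 ± 0.22). The 9 carboxylase 1 genes together stood at 229, 236 and 259 CPM in CDC Morrison against 126, 151 and 142 CPM in AC Morgan, without overlap, and missed the threshold (0.79 ± 0.24, adjusted p = 0.059). The other genes higher were those of an FGGY carbohydrate kinase, AIM32, pyruvate phosphate dikinase, glutamate-tRNA ligase, resistance protein RGA5 and 2 of SKP1-like protein 1. Of these, the sums of the FGGY kinase and AIM32 were also called.

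On the lower side, the corepressor LEUNIG_HOMOLOG, whose family represses floral and embryo genes in Arabidopsis, had a copy, 7Cg0000004, with 0 counts in CDC Morrison against 19.9, 20.1 and 18.9 CPM in AC Morgan, at least 784-fold lower. FREE1, a component of endosomal sorting, had copy 7Dg0002756 at 0.058, 0.047 and 0.046 CPM in CDC Morrison against 12.9, 15.2 and 15.0 CPM in AC Morgan (-8.03 ± 0.39). The rest were single copies of adenylosuccinate lyase, mitochondrial HSP70, a methyl-CpG-binding protein, an ALP1-like protein, a retrotransposon polyprotein, protein usf and the 5B and proteasome genes above. Of these 10 functions only usf had a sum that was called, at 40.1, 40.2 and 43.4 CPM in CDC Morrison against 54.2, 54.8 and 63.8 CPM in AC Morgan (-0.48 ± 0.10). All 20 genes kept their call when any 1 of the 6 libraries was left out. They were chosen for the smallest p in these same libraries, so this is no independent support. Of all called genes, 2276 of the 2943 higher and 2688 of the 3045 lower kept the call without replicate 1 of AC Morgan.

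Among the functions whose total did differ, 94 higher and 78 lower had non-overlapping libraries and at least 20 CPM in the higher cultivar. Of all those called, 172 of the 229 higher and 158 of the 214 lower were also called in the same direction in the mean of 10 to 40 DPE. With the 6 libraries alone only 24 functions were higher and 24 lower, so the functions named next rest in part on the spread measured at other times unless stated.

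By p, 3 functions came first among the 94 higher in CDC Morrison. Cysteine-rich receptor-like kinase 31, of a family of surface kinases linked to defence, summed over 3 genes to 36.3, 22.9 and 20.0 CPM in CDC Morrison against 2.31, 2.78 and 3.45 CPM in AC Morgan (3.2 ± 0.22, adjusted p = 1.81e-12). Myosin-binding protein 1, a receptor that ties myosin motors to vesicles in Arabidopsis, had all 3 of its genes higher and summed to 68.7, 70.9 and 87.0 CPM in CDC Morrison against 15.4, 20.1 and 16.5 CPM in AC Morgan (2.12 ± 0.17). Auxin response factor 2, which limits organ and seed size in Arabidopsis, summed to 47.8, 60.2 and 50.1 CPM in CDC Morrison against 14.5, 15.2 and 12 CPM in AC Morgan (1.93 ± 0.16). Libraries without overlap were a condition for the 94, so the separation of these 3 is no further result. In auxin response factor 2 a single copy accounted for most of the gap, 4Cg0002102, at 31.4, 37.5 and 27.3 CPM in CDC Morrison against 0, 0.024 and 0.085 CPM in AC Morgan.

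Mitochondrial lipoyl synthase, which makes the cofactor of pyruvate dehydrogenase, was among the most even between replicates, at 61.4, 58.6 and 60.8 CPM in CDC Morrison against 30.3, 30.6 and 31.2 CPM in AC Morgan (0.97 ± 0.10). The FGGY kinase (67.2, 61.5 and 57.6 CPM in CDC Morrison against 16.7, 22.4 and 26.8 CPM in AC Morgan) and nucleolar MIF4G protein 1 (57.9, 63.6 and 64.5 CPM in CDC Morrison against 28.3, 25.1 and 31.2 CPM in AC Morgan) followed. These 6 functions were also called from the 6 libraries alone, with adjusted p from 0.0143 to 0.0479. Polyubiquitin 8, a ribosomal RNA methyltransferase and calmodulin-binding protein 60 C were higher as well, and cytosolic glutamine synthetase 1-3, which assimilates ammonium, stood at 51.5, 77.1 and 44.4 CPM in CDC Morrison against 26.7, 8.28 and 13.7 CPM in AC Morgan (1.84 ± 0.35, adjusted p = 7.07e-04).

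Of functions picked after their values were seen, the monooxygenase that acts on 4-hydroxyphenylacetaldehyde oxime, a step of cyanogenic glucoside synthesis in sorghum, summed over 23 genes to 88.7, 33.9 and 174 CPM in CDC Morrison against 9.13, 5.42 and 7.19 CPM in AC Morgan (3.78 ± 0.45, adjusted p = 3.02e-07). Most of it came from Ung0000392, at 78.0, 24.9 and 147 CPM in CDC Morrison against 4.83, 1.44 and 3.38 CPM in AC Morgan. The dioxygenase BX6, which modifies benzoxazinoids, the defence compounds of maize and other grasses, summed to 85.0, 91.7 and 24.3 CPM in CDC Morrison against 14.1, 3.89 and 17.5 CPM in AC Morgan (2.51 ± 0.55, adjusted p = 0.00376). Serine carboxypeptidase-like 19 summed to 47, 63.0 and 58.1 CPM in CDC Morrison against 17.5, 22.3 and 25.6 CPM in AC Morgan (1.36 ± 0.18). The CDC Morrison replicates spread several-fold in the first 2 of these, yet their lowest lay above the highest of AC Morgan.

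Arginine decarboxylase opens the route to polyamines and to the phenolic amides of cereals, and 7 of its 17 tested genes were higher and none lower. The genes summed to 551, 984 and 69.2 CPM in CDC Morrison against 8.13, 4.75 and 72.4 CPM in AC Morgan, so that replicate 3 of CDC Morrison lay below replicate 3 of AC Morgan. The sum was called higher (4.22 ± 1.07, adjusted p = 0.0159), and the call was lost without replicate 1 (0.0975) or 2 (0.089) of AC Morgan or replicate 2 of CDC Morrison (0.0719). The CDC Morrison panicles differed widely among themselves.

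**Figure D2:**
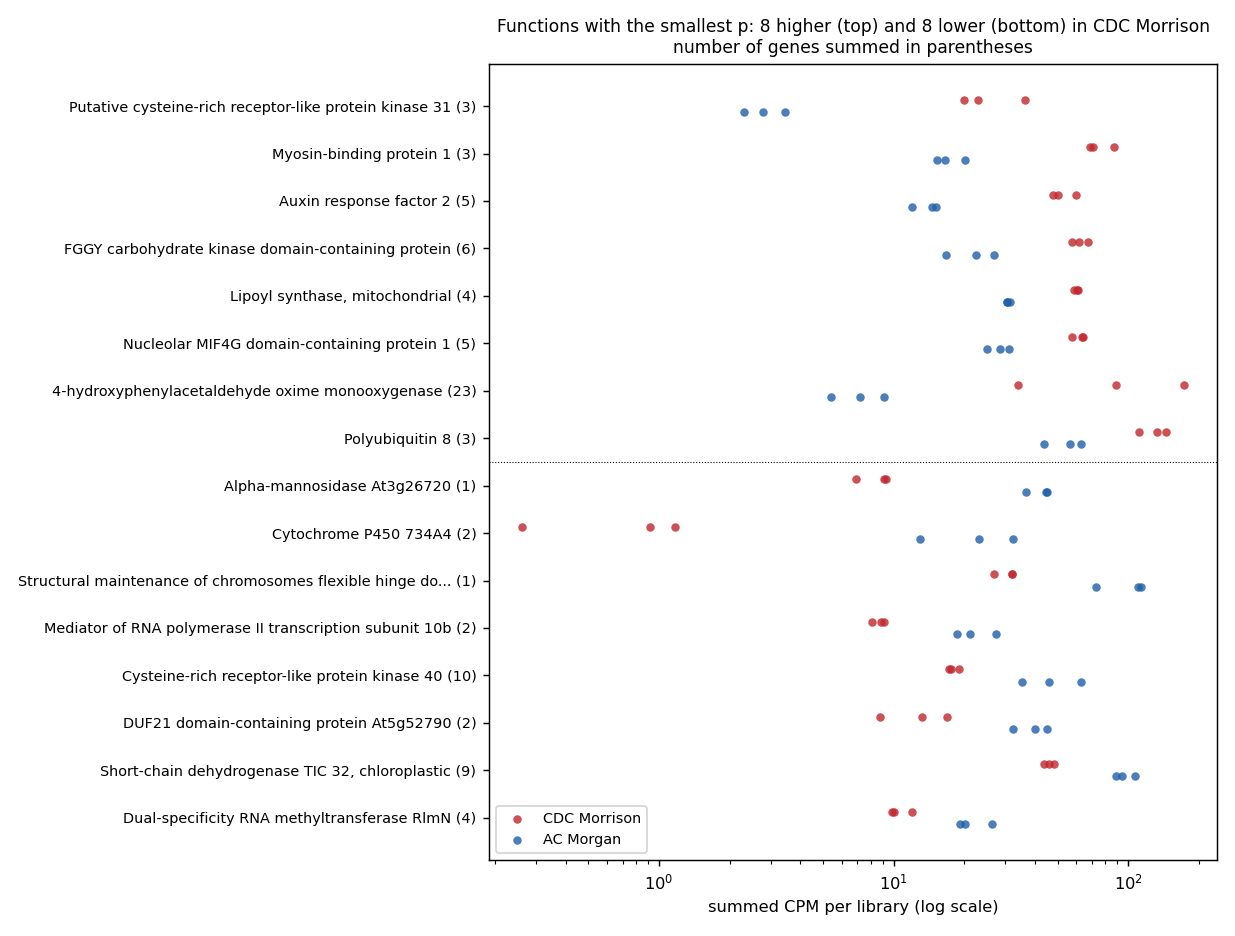
Summed CPM (log scale) of 16 functions, the first 8 by p in each direction among those with non-overlapping libraries and at least 20 CPM in the higher cultivar, 1 point a library, CDC Morrison above AC Morgan on each row, with the number of genes summed. Auxin response factor 2 sits at 47.8 to 60.2 CPM in CDC Morrison against 12 to 15.2 CPM in AC Morgan. No row shows overlap, because the choice required it.

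A single-gene function came first by p among the 78 lower in CDC Morrison with non-overlapping libraries and at least 20 CPM in AC Morgan. Below that level, 3 functions had a smaller p. The alpha-mannosidase At3g26720, of the enzymes that trim glycans, was at 9.14, 6.91 and 9.32 CPM in CDC Morrison against 44.5, 36.7 and 45.2 CPM in AC Morgan (-2.32 ± 0.21, adjusted p = 1.33e-09). Cytochrome P450 734A4, whose rice counterpart inactivates brassinosteroids, was at 0.261, 0.916 and 1.17 CPM in CDC Morrison against 23.0, 32.3 and 13 CPM in AC Morgan (-4.83 ± 0.56). P450 90D2, which works in brassinosteroid synthesis in rice, was also lower, at 24.8, 18.4 and 24.1 CPM in CDC Morrison against 40.4, 33.9 and 39.4 CPM in AC Morgan (-0.76 ± 0.14, adjusted p = 6.71e-04).

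GMI1, a chromatin protein linked to the repair of DNA breaks in Arabidopsis, was at 32, 26.8 and 31.9 CPM in CDC Morrison against 111, 113 and 73.2 CPM in AC Morgan (-1.71 ± 0.21, adjusted p = 7.83e-07). The end-joining subunit KU70 stood at 134, 111 and 120 CPM in CDC Morrison against 182, 194 and 193 CPM in AC Morgan (-0.64 ± 0.15, adjusted p = 0.00836), a call lost without replicate 2 of CDC Morrison (0.0586). The cell cycle kinase CDC2 homolog was lower too, at 16.6, 14.9 and 15.6 CPM in CDC Morrison against 30.8, 26.8 and 24.8 CPM in AC Morgan (-0.81 ± 0.13). These 3 were picked from the list of called functions after their values were seen and are no theme, since other functions that act on DNA were higher, among them formamidopyrimidine-DNA glycosylase (0.87 ± 0.13) and DNA topoisomerase 1 alpha (0.80 ± 0.15).

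Mediator subunit 10b was at 8.82, 9.09 and 8.06 CPM in CDC Morrison against 21.1, 18.7 and 27.4 CPM in AC Morgan (-1.37 ± 0.17), with both of its genes lower. Mediator links transcription factors to RNA polymerase. LSD1, which restrains cell death in Arabidopsis, was at 22.1, 9.09 and 13.3 CPM in CDC Morrison against 41.5, 36.7 and 45.2 CPM in AC Morgan (-1.47 ± 0.23). The phosphatase 2C 56 was at 8.47, 8.43 and 7.62 CPM in CDC Morrison against 58.9, 52.4 and 50.3 CPM in AC Morgan (-2.72 ± 0.59). In the E3 ubiquitin ligase WAV3, a sum over 45 genes of 143, 169 and 148 CPM in CDC Morrison against 282, 279 and 237 CPM in AC Morgan (-0.79 ± 0.18) turned on 1 gene, 5Cg0003388, at 0.087, 0.141 and 0.023 CPM in CDC Morrison against 121, 126 and 99.8 CPM in AC Morgan. The alpha-mannosidase, P450 734A4, GMI1, Mediator 10b and phosphatase 2C 56 sums were also called from the 6 libraries alone.

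Lists of functions, matched on words in the descriptions, showed where the called genes lay. Called genes made up 9.65% of all genes tested. Of 963 genes of the NLR class, the intracellular receptors that recognise pathogens, 131 were higher and 78 lower (21.7%), with a median log2 fold change of 0.21 against 0.00 over all genes. Of 992 transposon-related genes, 87 were higher and 101 lower (19.0%, median 0.13). F-box proteins, the substrate adaptors of ubiquitin ligases, followed with 65 higher and 70 lower of 1119 (12.1%). Receptor-like kinases, with 72 higher and 67 lower of 1579 (8.80%), were near the share of all genes, and pentatricopeptide repeat proteins, which process organelle RNA, were below it with 18 higher and 19 lower of 1046 (3.54%). With the 6 libraries alone the higher calls were 77 for the NLR, 50 for the transposon-related, 33 for the F-box, 33 for the kinase and 9 for the pentatricopeptide genes.

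**Figure D3:**
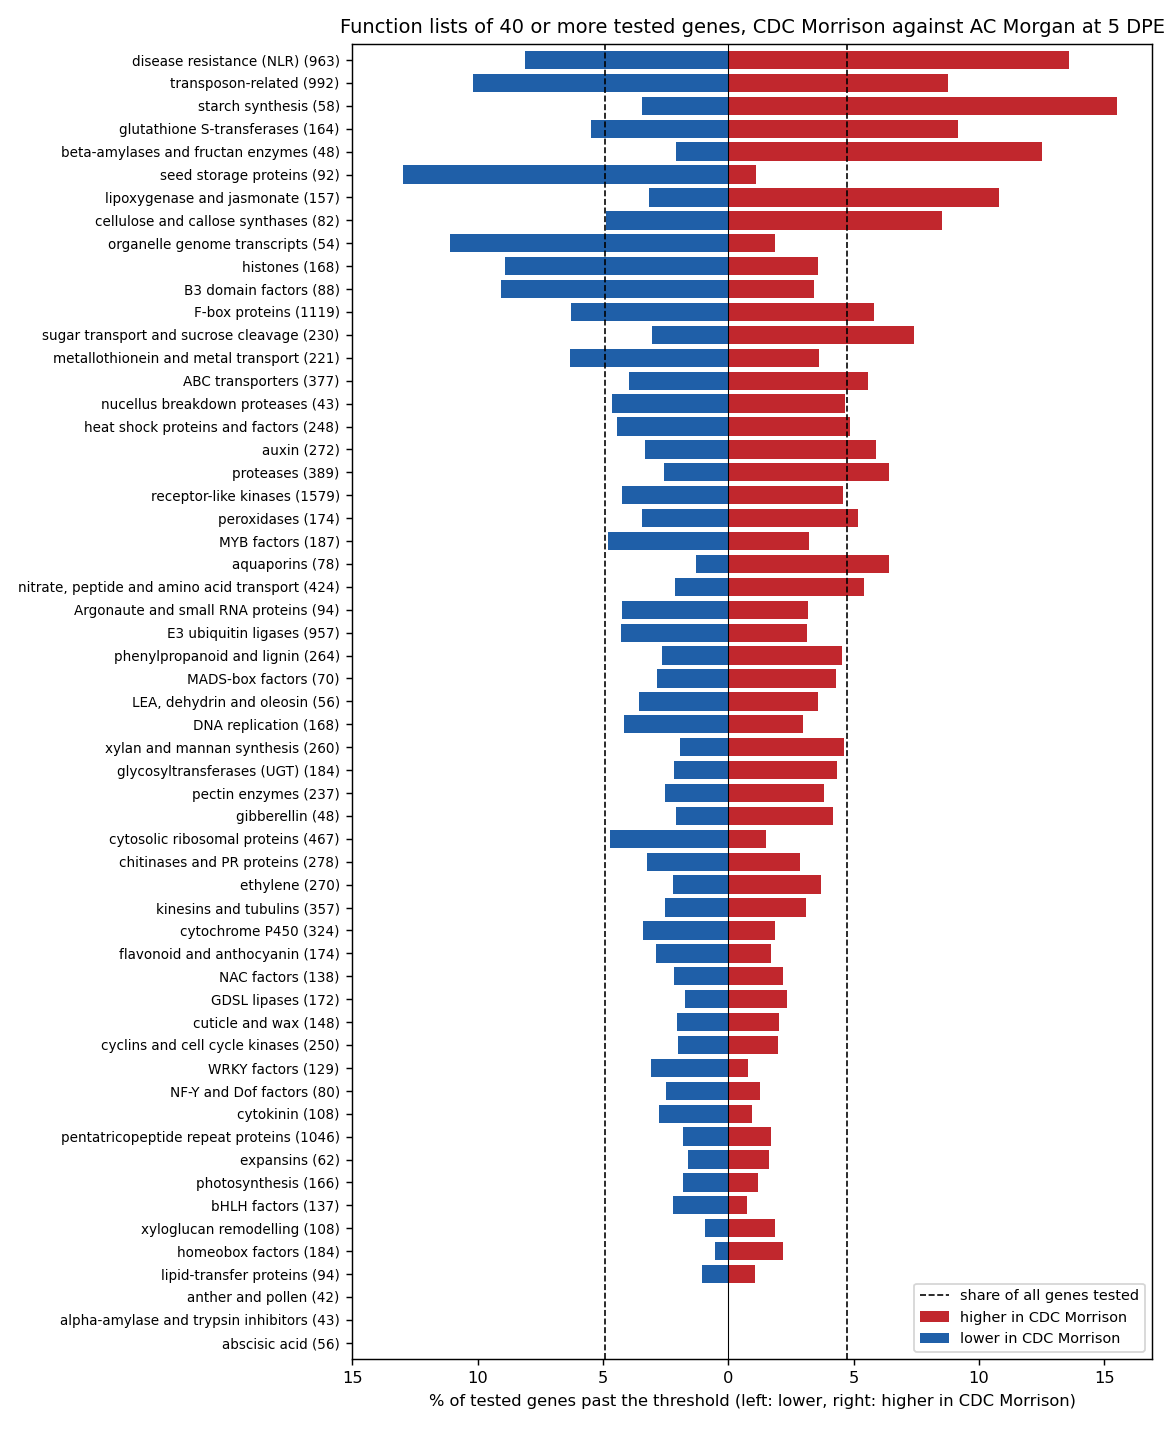
Share of the tested genes of each function list with at least 40 of them called higher (right, red) or lower (left, blue) in CDC Morrison, with dashed lines at the shares of all genes tested (4.74% and 4.91%) and the number tested in parentheses. Starch synthesis and the NLR genes lean to the right, storage proteins and histones to the left, and pentatricopeptide repeat proteins fall inside both lines.

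Within the NLR genes the balance between directions differed from one description to another. RGA5, named for a rice receptor of blast fungus proteins, had 53 genes higher and 19 lower of 246. Its gene 4Ag0003852 was at 98.0, 69.6 and 85.2 CPM in CDC Morrison against 9.02, 8.52 and 6.09 CPM in AC Morgan (3.42 ± 0.22, adjusted p = 9.88e-15), and 6Cg0001218 was at 8.30, 7.26 and 6.28 CPM in CDC Morrison with 0 counts in AC Morgan, at least 259-fold higher. RGA4 had 11 higher and 2 lower of 84, whereas RPM1 had 3 higher and 6 lower of 52, among them 4Dg0001175, at 0.029, 0.023 and 0 CPM in CDC Morrison against 21.2, 20.9 and 16.5 CPM in AC Morgan. Of the called NLR genes, 55 of those higher and 26 of those lower had at most 3 counts in the other cultivar. All 298 RGA5 genes of the table summed to 1713, 1497 and 1608 CPM in CDC Morrison against 1242, 1376 and 970 CPM in AC Morgan, without overlap, and the sum was not called (0.43 ± 0.14, adjusted p = 0.0899) except without replicate 2 of AC Morgan (0.0444). Other NLR sums were called in either direction. The 58 genes described exactly as disease resistance protein RGA4 were higher as a sum (0.57 ± 0.15, adjusted p = 0.0217). That call was lost without replicate 1 of AC Morgan (0.0786). The 15 genes of RPP13-like protein 3 were lower as a sum (-1.44 ± 0.26, adjusted p = 2.81e-04). Of the called NLR genes 111 of 131 and 70 of 78 were also called in the same direction from 10 to 40 DPE. Among all genes called at 5 DPE, 82% of those higher and 87.0% of those lower were. Such persistence was therefore not particular to the NLR genes.

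The transposon-related genes likewise split by type. LINE-1 elements had 11 genes higher and 2 lower of 72, and the domesticated RICESLEEPER and DAYSLEEPER transposases, which are needed for normal development in rice and Arabidopsis, had 5 higher and 13 lower of 111. The polyprotein gene 5Cg0000313 was at 27.5, 24.7 and 20.6 CPM in CDC Morrison with 0 counts in AC Morgan, at least 863-fold higher. Of those higher 29, and of those lower 49, had at most 3 counts in the other cultivar. Such genes carry many near-identical copies, so their individual values are uncertain.

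Some groups of carbohydrate genes leaned towards CDC Morrison and others did not. Of 230 genes of sugar transport and sucrose cleavage, 17 were higher and 7 lower (10.4%, median 0.26). This list also matched 26 fructan enzymes, described below, which held 3658, 1763 and 1990 CPM in CDC Morrison against 1822, 744 and 834 CPM in AC Morgan. Without them 14 of 204 genes were higher and 6 lower (median 0.22), and these summed to 2485, 2800 and 3091 CPM in CDC Morrison against 1795, 2212 and 2208 CPM in AC Morgan, without overlap. The types within the list differed. The median was 0.43 for sucrose synthases, 0.35 for invertases and 0.36 for sucrose transporters. It was 0 for the 115 genes matched as hexose and sugar transporters and 0 for the 42 SWEET sugar transporter genes. The SWEET genes summed to 259, 247 and 229 CPM in CDC Morrison against 253, 235.5 and 228 CPM in AC Morgan, which overlap. Sucrose synthases, which cleave imported sucrose, summed to 1389, 1354 and 1928 CPM in CDC Morrison against 902, 1092 and 969 CPM in AC Morgan, again without overlap, with 2 of 28 genes called, both higher. The most abundant of them, 7Ag0001008, was at 606, 598 and 485 CPM in CDC Morrison against 343, 316 and 337 CPM in AC Morgan and was not called (0.76 ± 0.44, adjusted p = 0.401). The sucrose transporter SUT4 gene 6Dg0001824 was higher, at 12.2, 30.5 and 23.6 CPM in CDC Morrison against 6.03, 11 and 9.68 CPM in AC Morgan (1.30 ± 0.23, adjusted p = 5.76e-05). Neutral invertase gene 1Ag0002477 was lower, at 0.464, 0.611 and 1.43 CPM in CDC Morrison against 6.40, 7.63 and 6.87 CPM in AC Morgan (-3.05 ± 0.41).

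Starch synthesis had 9 of 58 genes higher and 2 lower (19.0%, median 0.47). Branching enzyme 2 gene 2Dg0003623, whose product adds the branch points of amylopectin, was at 178, 82 and 78.6 CPM in CDC Morrison against 28.0, 5.30 and 12.4 CPM in AC Morgan (2.90 ± 0.39, adjusted p = 3.94e-07), and 5 of the 12 branching enzyme genes were higher. ADP-glucose pyrophosphorylase makes the glucose donor for starch, and its large subunit gene 1Dg0002148 was at 142, 74.7 and 58.8 CPM in CDC Morrison against 32.7, 15.8 and 26.4 CPM in AC Morgan (1.88 ± 0.32). A second large subunit, the only gene of its description, stood at 184, 113 and 61.7 CPM in CDC Morrison against 43.5, 18.8 and 39.7 CPM in AC Morgan (1.81 ± 0.31, adjusted p = 1.3e-04). The most abundant member, small subunit gene 5Cg0001771, did not differ beyond its spread, at 318, 192 and 188 CPM in CDC Morrison against 202, 155 and 247 CPM in AC Morgan. The list's summed level overlapped between cultivars, at 4293, 2681 and 1966 CPM in CDC Morrison against 2396, 1348 and 2208 CPM in AC Morgan. The 9 higher calls became 4 without replicate 2 of AC Morgan, 4 without replicate 1 of CDC Morrison and 5 without its replicate 2, and 2 in the 6 libraries alone, and the 2 lower calls became 1 without replicate 3 of AC Morgan.

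The beta-amylases and enzymes of fructan metabolism, a list added after the data were seen, varied widely between panicles. The list summed to 9326, 4960 and 3668 CPM in CDC Morrison against 2781, 1639 and 2916 CPM in AC Morgan, without overlap. Of 48 genes 6 were higher and 1 lower (14.6%), a count of higher genes that became 3 without replicate 2 of AC Morgan and 0 in the 6 libraries alone, with 2 lower without replicate 1 of AC Morgan. Beta-amylase gene 2Ag0000038 was at 1911, 1458 and 514 CPM in CDC Morrison against 109, 19.9 and 198 CPM in AC Morgan (3.571 ± 0.80, adjusted p = 0.00146), without overlap. Its more abundant neighbour in the list, 2Cg0000631, was at 3305, 1378 and 981 CPM in CDC Morrison against 681, 538 and 1581 CPM in AC Morgan, which overlap. Sucrose:sucrose 1-fructosyltransferase starts the synthesis of fructans, the soluble fructose polymers of young cereal grain. Its gene 5Cg0003392 was higher, at 637, 331 and 391 CPM in CDC Morrison against 165, 36.3 and 52.4 CPM in AC Morgan (2.43 ± 0.47), and 7Ag0000523 was lower, at 23.7, 11 and 14.8 CPM in CDC Morrison against 232, 39.5 and 54.3 CPM in AC Morgan (-2.71 ± 0.52). The transferase genes summed to 3647, 1727 and 1970 CPM in CDC Morrison against 1815, 647 and 803 CPM in AC Morgan, a sum that was not called (adjusted p = 0.0823) and was called without replicate 1 of AC Morgan (0.00954).

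Alpha-amylase type A, a starch-degrading enzyme, had 4 of its 5 genes higher. They summed to 73.9, 8.46 and 0.760 CPM in CDC Morrison against 0.472, 0.216 and 0.617 CPM in AC Morgan (5.98 ± 1.30, adjusted p = 0.00332). The amount was set by replicate 1 of CDC Morrison, and the call was lost without it (adjusted p = 0.101).

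Lists of wall synthesis differed in how far they leaned towards CDC Morrison. Of 82 cellulose and callose synthase genes 7 were higher and 4 lower (13.4%, median 0.19), and the cellulose synthases, with 3 of 26 genes higher and none lower, summed to 1497, 2280 and 1953 CPM in CDC Morrison against 1367, 1513 and 1349 CPM in AC Morgan, which overlap. Of these 26 genes, called or not, 23 had a positive log2 fold change and 3 a negative one (median 0.27). None of the 20 tested genes that make or break mixed-linkage glucan, the (1,3;1,4)-glucan for which oat grain is known, was called by edgeR, and their median log2 fold change was 0.68. They summed to 251, 999.8 and 295 CPM in CDC Morrison against 158, 371 and 374 CPM in AC Morgan, which overlap. With an unadjusted p under 0.05 there were 3 higher and none lower, DESeq2 called 1 higher and limma on the deposited normalized values called none. Leaving out a library gave at most 2 higher (without replicate 3 of AC Morgan), 1 higher without replicate 3 and 1 lower without replicate 1 of CDC Morrison. The most abundant, 7Ag0002427, was at 38.9, 145 and 77.3 CPM in CDC Morrison against 41.2, 135 and 22.7 CPM in AC Morgan and varied more between panicles than between cultivars. Of 260 xylan and mannan genes 12 were higher and 5 lower (6.54%, median 0), the higher calls becoming 7 without replicate 1 of AC Morgan and 6 without replicate 2 of CDC Morrison. They were led by the arabinosyltransferase XAT2 gene 1Dg0001862, which decorates xylan in rice, at 23.7, 51.1 and 47.4 CPM in CDC Morrison against 9.02, 8.67 and 11 CPM in AC Morgan (2.09 ± 0.22, adjusted p = 3.69e-09).

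Histones, the proteins that package DNA, leaned the other way and did so across most of the list. Of 168 histone genes 15 were lower and 6 higher (12.5%), with a median of -0.76, and in 123 of them every CDC Morrison library lay below every AC Morgan library, where 10.6% of all genes did. The genes summed to 3887, 4662 and 4323 CPM in CDC Morrison against 6327, 7366 and 7387 CPM in AC Morgan, without overlap. All 5 classes shared this. H2A genes had a median of -0.60, H2B of -0.73, H3 of -0.92, H4 of -0.93 and the linker H1 of -0.75, and the summed level of each class was lower in all CDC Morrison libraries than in any of AC Morgan. The 15 lower calls became 8 without replicate 2 of AC Morgan and 7, 9 and 7 without replicates 1, 2 and 3 of CDC Morrison, and 54 in the 6 libraries alone, whose spread was estimated at 5 DPE only. The paper describes sections of 5 DPE grain from the cultivars as very similar in developmental stage. Whether the panicles sequenced here were at the same stage was not tested.

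Single histone genes differed strongly in both directions. Histone H4 gene 1Dg0003536 was at 30.4, 50.02 and 43.6 CPM in CDC Morrison against 0.420, 0.456 and 1.06 CPM in AC Morgan (5.92 ± 0.71, adjusted p = 4.88e-08), and H4 gene 6Cg0003162 was at 0, 0.023 and 0 CPM in CDC Morrison against 11.5, 11.8 and 11.1 CPM in AC Morgan. Histone H2A.1 gene 7Dg0000393 was at 5.72, 5.26 and 4.63 CPM in CDC Morrison against 47.6, 71.0 and 61.4 CPM in AC Morgan (-3.53 ± 0.51). The other lists of dividing cells showed a weaker lean or none. Cyclins and cell cycle kinases had 5 higher and 5 lower of 250 (4.0%, median -0.12), kinesins and tubulins 11 higher and 9 lower of 357 (median -0.07), and DNA replication genes 5 higher and 7 lower of 168 (median 0.07). Every CDC Morrison library lay below every AC Morgan library in 37 of the cyclin and kinase genes and above in 14, below in 59 of the kinesin and tubulin genes and above in 23, and below in 13 of the replication genes and above in 15. Over all genes tested, 10.6% lay below in this way and 9.90% above. With the 6 libraries alone, 3 of the cyclin and kinase genes were higher and 6 lower, and 5 of the kinesin and tubulin genes were higher and 10 lower. The cyclin genes lower became 9 without replicate 3 of CDC Morrison. The kinesin and tubulin genes higher became 5 without replicate 2 or 3 of AC Morgan and 7 without replicate 1 of CDC Morrison, and the replication genes higher became 3 without replicate 3 of AC Morgan or replicate 1 of CDC Morrison. Cyclin and cell cycle kinase genes summed to 2007, 1944 and 2012 CPM in CDC Morrison against 1987, 2170 and 2020 CPM in AC Morgan.

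Cytosolic ribosomal protein genes had 22 of 467 lower and 7 higher (6.21%, median -0.18), with 13 higher without replicate 3 of AC Morgan. The largest gaps were single copies, such as L17-2 gene 7Dg0000610, at 0.058, 0 and 0 CPM in CDC Morrison against 61.4, 65.0 and 104 CPM in AC Morgan, and S25-2 gene 5Dg0002801, at 27.1, 42.1 and 34.7 CPM in CDC Morrison against 0.105, 0 and 0.170 CPM in AC Morgan. The list summed to 24366, 30177 and 28169 CPM in CDC Morrison against 27719, 27002 and 41632 CPM in AC Morgan, which overlap. Nucleosome assembly protein 1, a histone chaperone, had 6 of 15 genes higher and 1 lower, while the sum overlapped, at 489, 483 and 491 CPM in CDC Morrison against 497, 430 and 667 CPM in AC Morgan. Polyubiquitin, whose chains tag proteins for breakdown, had 8 of 38 genes higher and 8 lower and summed to 2230, 2073 and 1895 CPM in CDC Morrison against 1978, 1895 and 2344 CPM in AC Morgan (0.00 ± 0.16).

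**Figure D4:**
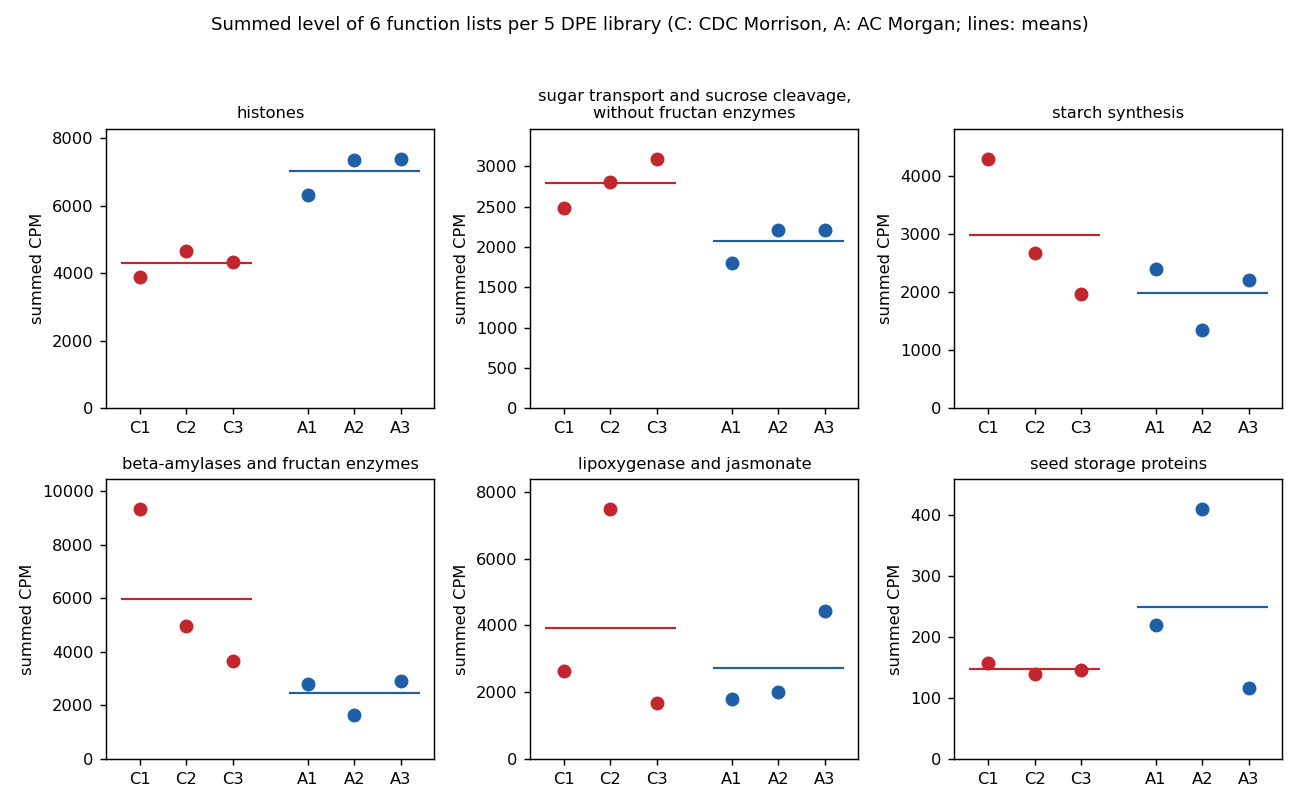
Summed CPM of 6 function lists in each 5 DPE library (C1 to C3, CDC Morrison; A1 to A3, AC Morgan), with lines at the cultivar means and the vertical axes starting at 0. Histones (3887 to 4662 CPM in CDC Morrison against 6327 to 7387 CPM in AC Morgan) and sugar transport and sucrose cleavage without the fructan enzymes (2485 to 3091 CPM in CDC Morrison against 1795 to 2212 CPM in AC Morgan) separate the cultivars in opposite directions. Beta-amylases and fructan enzymes also separate them (3668 to 9326 CPM in CDC Morrison against 1639 to 2916 CPM in AC Morgan). Starch synthesis, the jasmonate genes and the storage proteins overlap.

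Storage protein genes had 12 of 92 lower and 1 higher (14.1%, median -1.76), all at low level at this stage. The lower calls depended on which panicles were counted, becoming 1 without replicate 2 of AC Morgan, 28 without its replicate 3, and 7, 4 and 7 without replicates 1, 2 and 3 of CDC Morrison. In the 6 libraries alone 1 was lower, and DESeq2 called 34. The one gene higher, glutelin type-D gene 7Ag0000122, was at 5.02, 7.42 and 7.94 CPM in CDC Morrison against 0.577, 0.432 and 1.00 CPM in AC Morgan (3.31 ± 0.45, adjusted p = 5.15e-07). Photosynthesis genes had 2 of 166 higher and 3 lower (3.01%, median -0.55), with 1 higher without replicate 2 or 3 of AC Morgan or replicate 1 or 2 of CDC Morrison, and summed to 1000, 761 and 442 CPM in CDC Morrison against 1335, 673 and 1225 CPM in AC Morgan, which overlap.

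Other markers of tissue did not separate the cultivars. Of 42 anther and pollen genes none was called by edgeR, 3 were higher and 4 lower at an unadjusted p under 0.05, DESeq2 called 1 lower and limma 2 lower, 1 was called higher without replicate 3 of CDC Morrison, and the list summed to 205, 285 and 221 CPM in CDC Morrison against 206, 215 and 225 CPM in AC Morgan. The most abundant MADS-box gene, 1Ag0000158 of the C class that specifies carpels and stamens (MADS58), was at 211, 183 and 221 CPM in CDC Morrison against 240, 216 and 250 CPM in AC Morgan (-0.20 ± 0.26). Organelle-encoded genes, with 6 of 54 lower, summed to 1338, 2672 and 1468 CPM in CDC Morrison against 32309, 939 and 2145 CPM in AC Morgan, and only 1 was lower without replicate 1 of AC Morgan, 1 without replicate 1 of CDC Morrison, 3 without its replicate 2 and 1 without its replicate 3.

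Among hormones, jasmonate showed the highest share of calls and a wide spread between panicles. Of 157 genes of lipoxygenases and jasmonate, a hormone of defence and flower maturation, 17 were higher and 5 lower (14.0%, median 0.49), and lipoxygenases alone had 8 of 53 higher and 2 lower. The list summed to 2636, 7478 and 1689 CPM in CDC Morrison against 1781, 1997 and 4424 CPM in AC Morgan, with replicate 2 of CDC Morrison and replicate 3 of AC Morgan high. The count of genes higher became 28 without replicate 3 of AC Morgan, 9 without its replicate 2 and 10 without replicate 2 of CDC Morrison, whose omission also took the genes lower to 19, while 3 were lower without replicate 3 of AC Morgan, replicate 1 or replicate 3 of CDC Morrison. Allene oxide synthase gene 5Ag0000173, the committed step, was at 288, 905 and 169 CPM in CDC Morrison against 181, 122 and 408 CPM in AC Morgan and was not called (0.94 ± 0.56). The steadier calls were jasmonate-induced proteins, such as Ung0000245 (60 kDa), at 13.2, 10.4 and 4.74 CPM in CDC Morrison against 0.157, 0.192 and 0.192 CPM in AC Morgan (5.64 ± 0.68, adjusted p = 6.69e-08), and 6 of the 31 genes matched to that group were higher and none lower. The summed level of these 31 genes still overlapped, at 177, 239 and 92.6 CPM in CDC Morrison against 125, 63.3 and 231 CPM in AC Morgan.

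Of 272 auxin genes 16 were higher and 9 lower (9.19%, median 0.01). Auxin response factor 12 gene 5Dg0003315 was at 83.4, 83.7 and 82.5 CPM in CDC Morrison against 40.6, 39.6 and 17.5 CPM in AC Morgan (1.36 ± 0.23, adjusted p = 2.77e-05). The Aux/IAA repressors, which bind these factors, had 5 of 54 genes lower and 2 higher, among them IAA1 gene 3Ag0000583, at 1.36, 0.987 and 1.57 CPM in CDC Morrison against 3.62, 9.36 and 5.41 CPM in AC Morgan (-2.24 ± 0.41). The 9 lower calls became 3 without replicate 2 of AC Morgan, 14 without replicate 2 of CDC Morrison and 17 without its replicate 3. Of 56 abscisic acid genes none was called by edgeR, 1 was higher and 2 lower at an unadjusted p under 0.05, DESeq2 called none and limma 1 lower, and leaving out replicate 2 of CDC Morrison gave 3 lower. The AP2-type factor BABY BOOM, an embryo regulator, had gene 6Dg0000534 at 10.2, 11.6 and 12.7 CPM in CDC Morrison against 2.52, 1.58 and 3.68 CPM in AC Morgan (2.14 ± 0.38).

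Transcription factor lists lay at or below the share of all genes, except the plant-specific B3 family, with 8 of 88 lower and 3 higher (12.5%), the lower calls becoming 5 without replicate 3 of AC Morgan or replicate 3 of CDC Morrison. The neighbouring genes 4Ag0003283 and 4Ag0003284 were both higher, the first at 27.8, 23.5 and 28.6 CPM in CDC Morrison against 1.52, 1.68 and 2.13 CPM in AC Morgan, the second at 27.4, 23.8 and 29.5 CPM in CDC Morrison against 5.35, 5.42 and 4.49 CPM in AC Morgan. B3 gene 6Cg0001954 was lower, at 6.88, 5.69 and 6.51 CPM in CDC Morrison against 21.2, 23.0 and 24.2 CPM in AC Morgan (-1.84 ± 0.28, adjusted p = 3.78e-06). In the MADS-box list 3 genes were higher and 2 lower (7.14%), with 1 lower without replicate 3 of AC Morgan or replicate 1 of CDC Morrison, the most marked being 6Ag0001912 (MADS4), with 0 counts in CDC Morrison and 2.47, 3.07 and 5.15 CPM in AC Morgan, at least 156-fold lower.

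Glutathione S-transferases, which conjugate toxic compounds, had 15 of 164 genes higher and 9 lower (14.6%, median 0.00), of which 7 and 4 had at most 3 counts in the other cultivar. The transferase DHAR1 gene 7Ag0000123, of ascorbate recycling, was lower, at 6.65, 8.13 and 9.07 CPM in CDC Morrison against 33.5, 33.6 and 44.9 CPM in AC Morgan (-2.23 ± 0.21, adjusted p = 2.89e-10). Heat shock 70 kDa protein 14 gene 1Cg0000524 was higher, at 59.4, 43.7 and 44.2 CPM in CDC Morrison against 7.66, 6.02 and 7.51 CPM in AC Morgan (2.80 ± 0.19, adjusted p = 1.1e-13). The kinase gene behind the leading function, 1Cg0000260 (cysteine-rich receptor-like kinase 31), was at 36.3, 22.9 and 20.0 CPM in CDC Morrison against 2.31, 1.78 and 2.79 CPM in AC Morgan, and kinase 40 gene 6Ag0003376 was its counterpart on the lower side, at 0.261, 0.305 and 0.230 CPM in CDC Morrison against 29.4, 33.2 and 18.4 CPM in AC Morgan.

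In transport, the vacuolar calcium exchanger CAX1a summed over 3 genes to 108, 66.8 and 67.3 CPM in CDC Morrison against 14.7, 24.4 and 14.1 CPM in AC Morgan (2.18 ± 0.39, adjusted p = 2.92e-04), without overlap. The metal-nicotianamine transporter YSL14 gene 6Dg0001038 was higher, at 23.8, 12.9 and 41.6 CPM in CDC Morrison against 7.87, 8.43 and 5.72 CPM in AC Morgan (1.83 ± 0.25), and the metal transporter Nramp3 gene 7Dg0002499 lower, at 2.32, 1.18 and 0.783 CPM in CDC Morrison against 13, 8.64 and 17.8 CPM in AC Morgan (-3.21 ± 0.34). Nitrate, peptide and amino acid transporters had 23 of 424 genes higher and 9 lower (7.55%), the higher calls becoming 13 without replicate 1 of AC Morgan. Among them AVT1A gene 6Ag0001871, a vacuolar amino acid transporter, was at 16.3, 11.3 and 13 CPM in CDC Morrison against 4.62, 5.16 and 5.89 CPM in AC Morgan (1.37 ± 0.22).

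A minority of differences departed from the mean of the later times, which does not make them particular to 5 DPE. In 566 genes (0.912% of those tested) the log2 fold change at 5 DPE differed from the mean of the 7 later time points by the test of that difference, 317 of them above it (0.511%) and 249 below (0.401%), and 373 of the 566 were called at 5 DPE. The genes named next were called at 5 DPE in the direction of the departure and had non-overlapping libraries. They also had a description, at least 5 CPM in the higher cultivar and the smallest p of that test, a choice made after the data were seen. Most distinct was 7Dg0002794, for a Do-like protease, at 30.2, 21.7 and 24.9 CPM in CDC Morrison against 0.472, 0.240 and 0.660 CPM in AC Morgan, with a difference of 5.79 log2 units at 5 DPE against 1.99 later (departure 3.79, adjusted p = 3.77e-08). At 10 DPE it still averaged 23.15 CPM in CDC Morrison against 1.53 CPM in AC Morgan. The MLO-like protein 14 gene 5Dg0003381, of a family linked to powdery mildew susceptibility and to pollen tube reception, turned direction. It was at 12.2, 17.4 and 20.0 CPM in CDC Morrison against 2.68, 4.27 and 3.15 CPM in AC Morgan, 2.29 at 5 DPE against -2.55 later. The later value rests on low levels, with means from 10 to 40 DPE of 0.039 to 0.316 CPM in CDC Morrison and 0.259 to 2.01 CPM in AC Morgan. The transferase GST 23 gene 5Cg0001424 was at 8.65, 7.71 and 7.11 CPM in CDC Morrison against 0, 0 and 0.064 CPM in AC Morgan.

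On the lower side, the ubiquitin ligase XBOS35 gene 7Dg0001292 had 0 counts in CDC Morrison and 6.66, 8.74 and 7.38 CPM in AC Morgan, at least 312-fold lower at 5 DPE. At 10 DPE the gap was still wide, with means of 0.0495 CPM in CDC Morrison against 7.02 CPM in AC Morgan, and its mean log2 fold change from 10 to 40 DPE was -1.85. Galactinol-sucrose galactosyltransferase, which makes raffinose, had gene 1Ag0000825 at 1.92, 1.08 and 0.115 CPM in CDC Morrison against 13.6, 15.1 and 30.8 CPM in AC Morgan, -4.28 at 5 DPE against 0.09 later. Cyclin B1-5 gene 1Ag0002862, of entry into mitosis, was at 1.42, 1.76 and 1.82 CPM in CDC Morrison against 4.35, 7.44 and 6.75 CPM in AC Morgan, -1.89 at 5 DPE against -0.14 later. For functions as sums, 120 of 11493 departed (1.04%), 55 of them called at 5 DPE. CAX1a was among these, with 2.18 at 5 DPE against -0.42 later, as were alpha-amylase type A (5.98 against -0.38), WAV3 (-0.79 against -0.06), P450 90D2 (-0.76 against 0.04) and serine carboxypeptidase-like 19 (1.36 against 0.13). Of the histone genes 4 departed, and of the 48 beta-amylase and fructan genes 5 did.

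**Figure D5:**
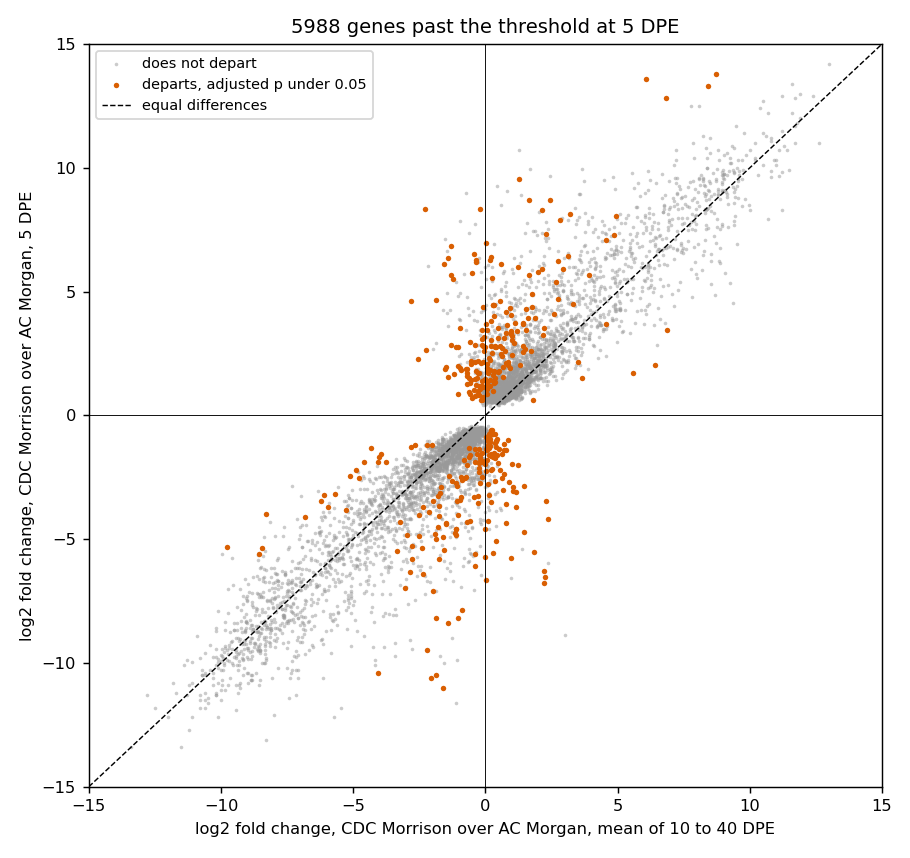
Log2 fold change of CDC Morrison over AC Morgan at 5 DPE (vertical axis) against its mean over 10 to 40 DPE (horizontal axis) for the 5988 genes called at 5 DPE, with the dashed line at equal differences. Grey points lie mostly along the line, and orange points are the 373 genes whose difference at 5 DPE departed from the later mean.

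The called genes were unevenly placed. Chromosome 1C had 21.5% of its 1677 tested genes called and 7D had 16.3% of 3303, with 397 lower and 143 higher on 7D, against 4.53% of 2559 on chromosome 3D. The 490 genes on unplaced sequence had 29.2% called. The direction leaned to lower on 7D and 7A (246 lower and 136 higher) and to higher on 2D (246 higher and 130 lower) and 4A (206 higher and 82 lower). Among families of at least 10 genes with the same description, the highest shares called were in the chaperone ClpC1 (6 of 12, 4 higher and 2 lower), histone H2B.1 (6 of 12, 1 higher and 5 lower), nucleosome assembly protein 1 (7 of 15) and polyubiquitin (16 of 38). Arginine decarboxylase, with 7 of 17, had called genes in 1 direction only.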

How the data were processed

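The authors trimmed the single-end reads with Trim Galore, removed ribosomal RNA with Bowtie2, quantified transcripts of oat line OT3098 v2 with Salmon and deposited estimated counts per gene. Versions were not given in the sources used here, nor whether Salmon used the strand. The authors also deposited log2-scale normalized values (variance-stabilised by DESeq2), which served only as an alternative. No column lacked a sample. The estimated counts were rounded and genes kept with at least 5 counts in at least 5% of 47 development libraries. Replicate 1 of CDC Morrison at 10 DPE (2184611 counts) was left out. Counts were scaled by TMM and tested with edgeR 4.0.16 (R 4.3.3), with limma 3.58.1 and DESeq2 1.42.0 as alternatives, and adjusted by Benjamini-Hochberg over all genes tested. The 5 DPE contrast was set against the mean over 10 to 40 DPE. On simulated counts with 200 genes changed by 2 log2 units, 84.5% were recovered and 1 other gene was called among 61658. For summed functions, 98% of 200 were recovered and 13 others were called among 10027. The simulated counts had the same spread for all features (dispersion 0.101 for genes), and only features with high mean counts were changed. These figures therefore do not carry over to the uneven spread of the real libraries or to genes near 0 counts.

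Genes named are those with a description, at least 1 CPM in the higher cultivar, no overlap between cultivars and the smallest p, 10 in each direction over all genes and up to 2 in each direction a list, plus each list's most abundant member. Not every gene that this rule gives is described. The genes, lists and functions were chosen with earlier results of these data known, and the summed functions, their copies, the sublists and the genes departing from the later mean after values were seen. Of the 60 lists, those with at least 40 tested genes are in the plot of list shares. For genes with enough counts to compare, counting error was small beside the spread between panicles. Genes with few counts were left out of that check.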

Additional observations from a re-analysis of the deposited data

Results flagged for a closer look

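At 5 DPE the cultivar difference of 566 genes was tested to differ from its mean over 10 to 40 DPE, and the values here are those differences between differences in log2 units, positive where CDC Morrison stood further above AC Morgan at 5 DPE. Among genes described above they were 4.84 for MLO-like protein 14 (5Dg0003381), 5.10 for GST 23 (5Cg0001424), 3.79 for the Do-like 14 protease (7Dg0002794), 3.77 for histone H4 gene 1Dg0003536, 1.66 for YSL14 (6Dg0001038), 1.5 for callose synthase 2 gene Ung0000379, 1.30 for receptor-like kinase 31 (1Cg0000260), 1.29 for AVT1A (6Ag0001871) and 1.00 for auxin response factor 12 (5Dg0003315). The negative values were -8.66 for XBOS35 (7Dg0001292), -4.37 for the galactinol-sucrose galactosyltransferase (1Ag0000825), -2.28 for IAA1 (3Ag0000583), -1.75 for cyclin B1-5 (1Ag0002862) and -0.85 for the FGGY kinase gene 6Cg0001905. The value for XBOS35 comes from a fit to libraries with 0 counts and is no bound.

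For functions as sums, the same difference was 6.35 for alpha-amylase type A, 2.60 for CAX1a, 2.47 for the oxime monooxygenase, 2.31 for sucrose:sucrose 1-fructosyltransferase, 2.21 for BX6, 1.48 for the single-gene pyrophosphorylase large subunit, 1.44 for receptor-like kinase 31, 1.23 for serine carboxypeptidase-like 19 and 0.88 for auxin response factor 2. It was -1.18 for LSD1, -0.84 for the alpha-mannosidase, -0.80 for P450 90D2 and -0.74 for WAV3. The alpha-amylase value rests on replicate 1 of CDC Morrison.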

How the results depend on the processing

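The library set changed the counts most. With the 6 libraries of 5 DPE alone 1497 genes were higher, 24 functions higher and 24 lower, and with a replicate block in those 6 libraries 898 genes were higher and 1245 lower. DESeq2 gave 1476 genes departing from the later mean, against 566. Leaving out each library in turn gave 2484 to 2979 genes higher, 2716 to 2913 lower, 426 to 658 departing, 171 to 301 functions higher and 162 to 224 lower. The other settings (DESeq2, RLE or library-size scaling, no filter, filterByExpr, all 48 libraries, thinning, limma, a size requirement) kept the higher and lower gene counts within 1.5 times. Of the 68 called genes examined 9 lost the call in the 6 libraries alone and none reversed under any setting. Same-numbered libraries correlated at 0.392, 0.064 and -0.245 in their deviations, so the replicate numbers do not pair the samples, and the replicate block over all groups gave 2830 genes higher and 2954 lower with 508 departing. The causes of these changes were not tested. With 3 panicles a cultivar, differences smaller than the spread between panicles were not detectable, and the shallowest library (12040047 counts) limits low genes.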
